A study of Mus musculus with 7 samples.

Results

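The genes described here are 30 enzymes and regulators of cholesterol and fatty acid synthesis, out of 39179 genes in the authors' deposited table. They were chosen by name, with earlier results of these data known. Of these genes, 29 were found by symbol and 1, Msmo1, by its Ensembl identifier, because the table lists it under an older name. They were measured in regulatory T cells, a CD4 lineage marked by Foxp3 that holds other immune cells in check. Cells positive for CD4, TCRb and Foxp3 and high in CD25 were sorted from lymph node, and the C57BL/6 mice were 3 weeks old. The study asked what these cells express when Id2 and Id3, which block the DNA binding of E proteins, are removed by a Cre recombinase that Foxp3 drives, so that the deletion follows Foxp3 expression. The 3 numbered double-knockout (dKO) libraries carried the genotype label Id2fl/flId3fl/flFoxp3cre, and the 2 numbered control libraries carried Id2fl/+Id3fl/+Foxp3cre, so controls also had the Cre and 1 floxed allele of each gene. The series' design text writes the dKO driver as Foxp3Cre/Cre. A further pair of libraries without a number, 1 dKO and 1 control by title, has genotype tags that are the reverse of its titles. It is called here the library labelled dKO and the library labelled control. Which animal or pool each library came from is not labelled, and p-values therefore measure only the spread between these libraries.

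Animal cells build cholesterol from acetyl-CoA through mevalonate, the isoprenoid units made from it, squalene and lanosterol. The same acetyl-CoA, made from citrate, is the start of fatty acid synthesis. Genes of both routes are switched on by the SREBP transcription factors, which leave the endoplasmic reticulum with their escort SCAP when sterols are scarce and are held there by INSIG proteins when sterols are plentiful. In T cells the mevalonate route is known for supplying membrane sterol to dividing cells and lipid anchors to small GTPases, and in mouse regulatory T cells it has been tied to their suppressive function.

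Values of the numbered libraries are the authors' group means of reads after division by library size factors, called scaled counts here. For a group mean no SD can be given, so the spread is shown by the 2 control libraries where their own reads could be worked back from the printed mean, which was the case for 22 of the 30 genes. Scaled counts summed to 39948550 in dKO and 38950892 in control, and the size factors of the control libraries were 1.29 and 1.09, so that 1 control library was the deeper. As a check of the labels, Id2 had 61.1 scaled counts in dKO and 783 in control in the authors' deposited table (log2 fold change -3.68, adjusted p 1.48e-08, DESeq). Id3 had 891 scaled counts in dKO and 1376 in control there, with a log2 fold change of -0.63 that did not pass (adjusted p 0.209). Of 616 control reads of Kdm5d and Uty, which are Y-linked, 601 were in the deeper control library, so the control libraries did not come from the same animal or pool. Kdm5d had 2.56 scaled counts in dKO and 112 in control, and Uty had 17.8 in dKO and 128 in control, in the authors' deposited table. The Y-linked level thus differed between the groups as well, and its part in the results was not tested. Regulatory T cell markers were high in both groups, with 144239 scaled counts in dKO and 130262 in control over 6 genes. Of these only Ctla4 passed, with 26706 scaled counts in dKO and 13258 in control (log2 1.01, adjusted p 4.71e-05, the authors' deposited table). Foxp3 had 10942 in dKO and 13481 in control (adjusted p 0.188), and Cd4 had 32790 in dKO and 26431 in control (adjusted p 0.174). Ikzf2 was lower in dKO like Foxp3, at 18296 scaled counts against 22751 in control (log2 -0.31). Il2ra and Cd3e had log2 fold changes of -0.01 and 0.09 in the authors' deposited table. Marker lists of B and plasma cells, of myeloid and dendritic cells, of CD8 T and natural killer cells, and of stromal and endothelial cells summed to between 388 and 4538 scaled counts in dKO and between 384 and 4790 in control. The stromal sum was nearly all Pecam1, with 4397 scaled counts in dKO and 4674 in control. Among these other markers only Xcr1 passed the test, with 13.3 scaled counts in dKO and 47.0 in control. In bulk samples such as these, fewer cells of a type and less RNA per cell cannot be told apart.

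Few of the lipid synthesis genes differed between dKO and control by the test. By DESeq in the authors' deposited table, Mvd of the mevalonate route was the 1 gene of 30 that rose in dKO and Sc5d of the last sterol steps the 1 that fell, while 28 missed the threshold of 0.05 for the adjusted p. That is 6.67% of the 30, beside 6.56% of the 31641 genes with a p, of which 3.38% were higher and 3.18% lower in dKO. All but Scd1 had a mean of at least 300 scaled counts. Among the 9394 genes at that level 14.8% were called, 7.98% higher and 6.83% lower in dKO, so the share of lipid genes called was not above that of genes of like level. An unadjusted p under 0.05 stood in the authors' deposited table for 5 lipid genes (Mvd, Sc5d, Tm7sf2, Scd2 and Fasn), beside 13.5% of all genes with a p and 29.3% of genes at that level.

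The log2 fold changes of the lipid genes lay close together. Their median in the authors' deposited table was 0.11, from -0.55 to 0.65, and 20 were above and 10 below 0. The median of the 9394 genes of like level was 0.01, and 51.9% of those were above 0, as were 49.3% of all genes with a p. Of the 29 lipid genes at that level, 24 had a log2 fold change smaller than 0.3 in size, beside 70.5% of all genes there. Scaling each group to its sum in place of size factors put 18 lipid genes above and 12 below 0. For 21 genes with a mean of 300 or more and a control mean under 2000, both control libraries could be read. The dKO mean lay above both control libraries for 12 of these, below both for 1 (Sc5d) and between them for 8. Among all 5016 genes read in the same way, 40.6% lay above both, 40.6% below both and 18.7% between. Among the 12 lipid genes above both, only Mvd passed the test.

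**Figure D1:**
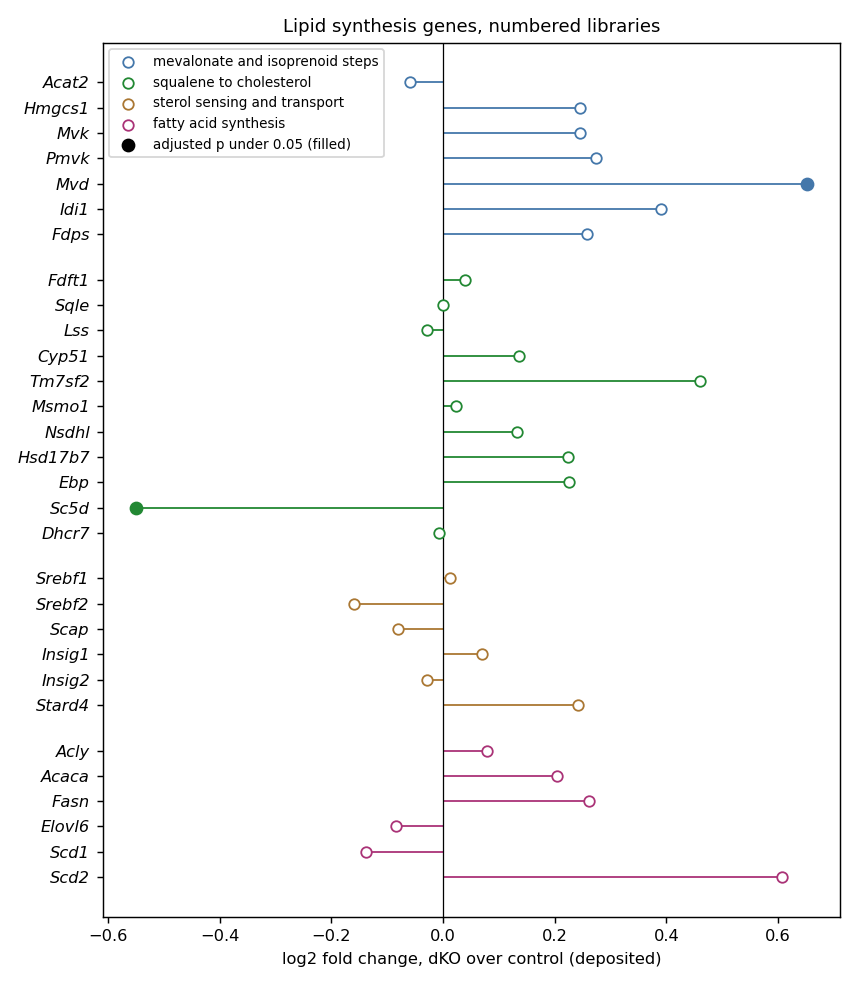
Log2 fold change of each gene, dKO over control, from the authors' deposited table, grouped by step. Filled points passed an adjusted p of 0.05, and only Mvd (0.65) and Sc5d (-0.55) did.

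**Figure D2:**
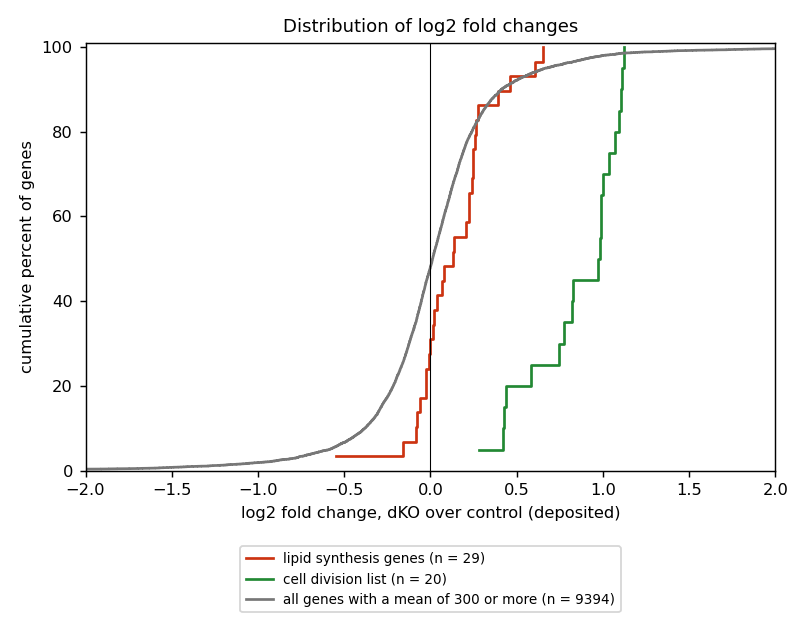
Cumulative percent of genes against the log2 fold change, dKO over control, for the 29 lipid synthesis genes whose mean was at least 300, the 20 genes of the cell division list, and all 9394 genes of that level. The lower part of the lipid curve lies to the right of that of all genes and its upper part near it (median 0.11 for all 30 lipid genes against 0.01). The cell division list has a median of 0.98 and runs from 0.28 (Mcm6) to 1.12 (Mki67).

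In the mevalonate and isoprenoid steps, 1 gene rose out of 7, with 0 that fell and 6 that did not pass, with a median log2 fold change of 0.26. Mvd, which decarboxylates mevalonate diphosphate to the first isoprenoid unit, is ENSMUSG00000006517 on chromosome 8, 122433596 to 122443422 (GRCm38). It averaged 1569 scaled counts in dKO, against 1093 in the deeper and 904 in the other control library. The dKO mean thus stood above both control values by more than they differed from each other. For Mvd the authors' deposited table lists a log2 fold change of 0.65 (adjusted p 0.0003). Against each control library alone the change was 0.52 and 0.79. Mvd overlaps Gm20388, a gene on the other strand with 2953 scaled counts in dKO and 2756 in control (log2 fold change 0.10, adjusted p listed at 1 in the authors' deposited table). Over both genes together the log2 ratio was 0.27. The sources used here do not give whether reads were counted by strand.

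The other genes of these steps had smaller values, and none passed. Hmgcs1, which makes the precursor of mevalonate, averaged 1674 scaled counts in dKO, against 1417 and 1406 in the control libraries (log2 fold change 0.25, adjusted p 0.93 in the authors' deposited table). Idi1, which interconverts the isoprenoid units, averaged 1390 in dKO, against 997 and 1123 in control (log2 0.39, adjusted p 0.782 there). Both stood above both control libraries without reaching the threshold. The kinase genes Mvk and Pmvk had 634 and 868 scaled counts in dKO. In control, Mvk had 534 and 536, and Pmvk had 684 and 752. Fdps, which joins isoprenoid units to farnesyl diphosphate, averaged 1843 in dKO, against 1570 and 1511 in control. These 3 had log2 fold changes of 0.25, 0.27 and 0.26 in the authors' deposited table, so 6 of the 7 genes were above 0. Acat2, the cytosolic thiolase at the start of the route, lay between its control values, at 1022 scaled counts in dKO, against 959 and 1172 in control. Fdps, Idi1 and Acat2 have near-identical copies with reads, and over gene and copies the log2 ratios were 0.26, 0.36 and -0.06.

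Among the 11 genes from squalene to cholesterol, 0 rose, 1 fell and 10 did not pass, with a median log2 fold change of 0.04. Sc5d, the sterol desaturase that makes the substrate of the last reductase, is ENSMUSG00000032018 on chromosome 9, 42254177 to 42264300. It averaged 1098 scaled counts in dKO, against 1605 and 1609 in the control libraries. The 2 control values were nearly equal, and the dKO mean was well below both. Sc5d fell by 0.55 in log2 units (adjusted p 0.002, the authors' deposited table). Its table entry overlaps no other gene. The control reads of Sc5d rest on the only whole-number solution in which neither library gives over 65% of the summed value.

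Tm7sf2, which encodes a sterol ring reductase, came next by p without passing. It averaged 558 scaled counts in dKO, against 404 and 407 in control, and the authors' deposited table lists a log2 fold change of 0.46 (adjusted p 0.0614). Adjusted over genes with a mean of 10 or more its p was 0.0302, so its call depends on which genes are tested with it. Tm7sf2 overlaps Vps51 on the same strand, which had 2136 scaled counts in dKO and 2088 in control, and the sum of both had a log2 ratio of 0.11.

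None of the remaining genes of these steps passed. Fdft1, squalene synthase, averaged 1434 scaled counts in dKO, against 1399 and 1394 in control. Fdft1 overlaps Ctsb on the other strand, and over both genes the log2 ratio was 0.13. Sqle, the epoxidase that acts next, averaged 765 in dKO, between 732 and 797 in control. Lss, which closes the rings to lanosterol, averaged 493 in dKO, between 467 and 539 in control. These 3 consecutive steps had log2 fold changes of 0.04, 0.00 and -0.03 in the authors' deposited table. Cyp51, which demethylates lanosterol, averaged 1667 scaled counts in dKO, against 1518 and 1516 in control. Msmo1 and Nsdhl, which remove further methyl groups, averaged 828 and 932 in dKO. In control, Msmo1 had 847 and 784, and Nsdhl had 832 and 870. Hsd17b7, which acts with them, varied most of these genes between the control libraries, with 349 in dKO, against 229 and 369 in control. Ebp, a sterol isomerase gene that is X-linked like Nsdhl, averaged 3276 in dKO and 2800 in control (log2 0.23, adjusted p 0.571 in the authors' deposited table). Dhcr7, the last reductase, averaged 1696 in dKO, between 1794 and 1614 in control.

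**Figure D3:**
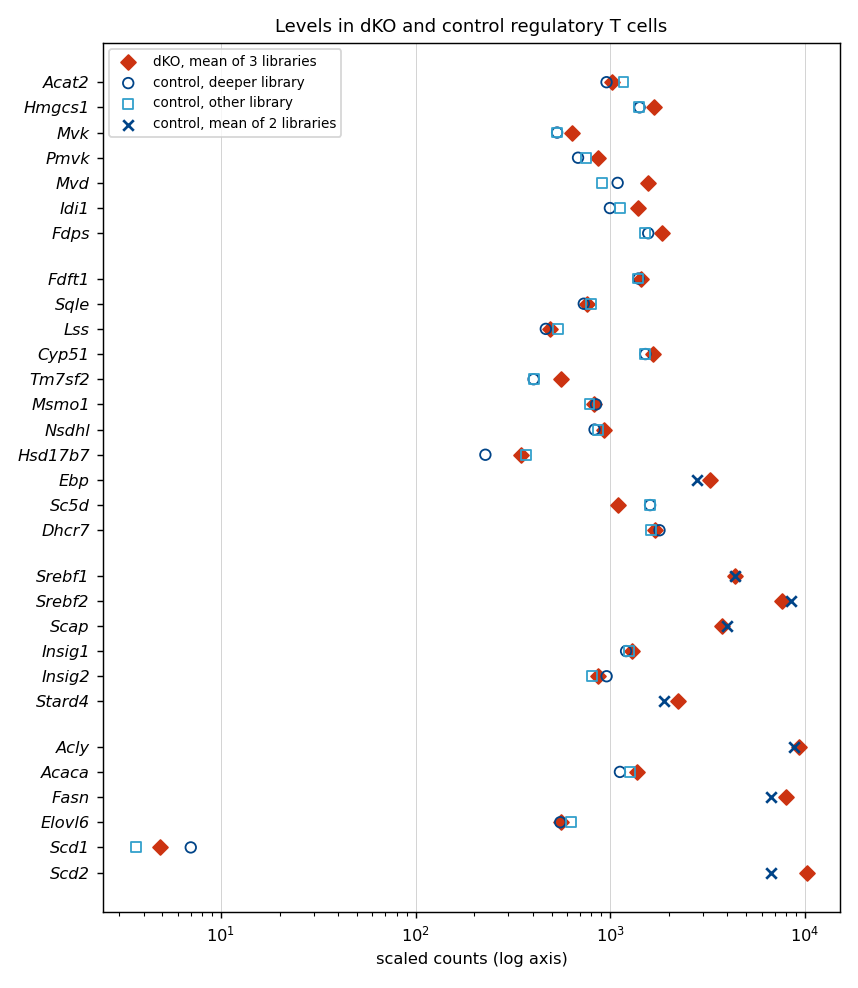
Scaled counts (log axis) of each gene as the mean of 3 dKO libraries and, where it could be read, in each of the 2 control libraries, otherwise as the control mean. Mvd lies above and Sc5d below both control libraries, and Scd1 lies far below all others, at a mean of 4.85 in dKO and 5.33 in control.

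None of the regulators of the routes passed the test, with 0 of 6 called and a median log2 fold change of -0.01 in the authors' deposited table. Srebf2, the SREBP gene best known for cholesterol synthesis, averaged 7610 scaled counts in dKO and 8500 in control (log2 -0.16, adjusted p 0.912). Srebf1, better known for fatty acid synthesis, averaged 4409 in dKO and 4369 in control (log2 0.01, adjusted p listed at 1). Per kilobase of exon, Srebf2 stood at 1525 scaled counts in dKO and 1704 in control, and Srebf1 at 783 in dKO and 775 in control. Srebf2 thus had the higher level in both groups of the numbered libraries. In the unnumbered pair, given below, the order was the other way in the library labelled dKO. Scap, the escort, averaged 3766 scaled counts in dKO and 3982 in control. Insig1, itself a sterol-repressed gene, averaged 1292 in dKO, against 1208 and 1254 in control, and Insig2 averaged 868, between 959 and 810 in control. Their log2 fold changes were -0.08 for Scap, 0.07 for Insig1 and -0.03 for Insig2 in the authors' deposited table. Stard4, a carrier that moves cholesterol between membranes, averaged 2233 scaled counts in dKO and 1888 in control (log2 0.24, adjusted p listed at 1 there). Srebf1 overlaps Rai1 on the other strand, and over both genes the log2 ratio was 0.10.

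In fatty acid synthesis, 0 of 6 genes passed, and the median log2 fold change was 0.14 in the authors' deposited table. Scd2, a desaturase that makes monounsaturated fatty acids, had the largest difference of these. It averaged 10264 scaled counts in dKO and 6741 in control, and the authors' deposited table lists a log2 fold change of 0.61 (unadjusted p 0.0393, adjusted p 0.314). Scd1, its close relative, was barely detected, at 4.85 scaled counts in dKO and 5.33 in control, where it had 9 and 4 reads. The only desaturase of the 2 with appreciable message in these cells was therefore Scd2, although a stretch of 623 bases that is 95.5% identical between them can share reads. Fasn, fatty acid synthase, averaged 8005 scaled counts in dKO and 6676 in control (log2 0.26, unadjusted p 0.0463, adjusted p 0.350 in the authors' deposited table). Acly, which makes acetyl-CoA from citrate, averaged 9353 in dKO and 8851 in control (log2 0.08). Acaca, which makes malonyl-CoA, averaged 1376 in dKO, against 1123 and 1264 in control (log2 0.20). Elovl6, which lengthens the products of Fasn, averaged 557 in dKO, against 554 and 626 in control (log2 -0.08). For Acly, Acaca and Elovl6 the adjusted p was listed at 1 in the authors' deposited table.

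Levels ranged widely among the genes. Per kilobase of exon, Scd2 (1882 scaled counts in dKO, 1236 in control), Acly (1772 in dKO, 1677 in control), Srebf2, Fdps (1485 in dKO, 1241 in control) and Ebp (1418 in dKO, 1212 in control) stood highest in dKO. The lowest besides Scd1 were Lss (45.7 in dKO, 46.7 in control), Hsd17b7 (68.4 in dKO, 58.5 in control) and Acaca (90.8 in dKO, 78.8 in control). Exon length here covers all annotated exons of a gene, so genes with long rarely used exons come out low. The order differed in the unnumbered pair, described below, where Fdps stood below Srebf1, Mvd and Fasn in both libraries.

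Promoter sequence was compared because the genes are held to share SREBP control. The list was chosen around that pathway and holds SREBP genes themselves, so the shares below are not independent of the choice. RefSeq promoters (GRCm38.p6, the 250 bases before the start) were found for 24 of the 30 genes, and motifs were counted on both strands. A gene was counted if any of its promoters held a match, and the shares over all genes were not matched for level. Some genes have matches in only part of their promoters, such as Dhcr7 for the CCAAT box. A CCAAT box (CCAAT, bound by NF-Y, a known partner of SREBP) was in 19 of the 24 (79.2%), against 37.5% of 27025 genes with a promoter. A GC box (GGGCGG, bound by Sp1) was in 20 of the 24 (83.3%), against 35.4% of all genes. An E-box (CANNTG, the general form of the sites E proteins bind) was in 15 of the 24 (62.5%), against 69.3% of all genes. Its 2 inner letters were left free, so a match is not specific to E proteins. The sterol element core TCACNCCAC was in 1 of the 24, Hmgcs1 (4.17%, against 1.23% of all genes). Other forms of the element were not searched, so genes without this match are not shown to lack one. Sqle, Fdft1, Fdps, Stard4, Scd1 and Scd2 had no promoter to search. A match is a description of letters and not a bound site. The genes that rose and fell, Mvd and Sc5d, both hold CCAAT and E-box matches, and are shown with those in capitals beside Hmgcs1, shown for its sterol element and CCAAT matches, also in capitals. Each is read 5′ to 3′ along its gene and ends at the base before the start. Mvd is on the minus strand at chr8:122443423-122443672, Sc5d on the minus strand at chr9:42264301-42264550 and Hmgcs1 on the plus strand at chr13:119690101-119690350.
Mvd: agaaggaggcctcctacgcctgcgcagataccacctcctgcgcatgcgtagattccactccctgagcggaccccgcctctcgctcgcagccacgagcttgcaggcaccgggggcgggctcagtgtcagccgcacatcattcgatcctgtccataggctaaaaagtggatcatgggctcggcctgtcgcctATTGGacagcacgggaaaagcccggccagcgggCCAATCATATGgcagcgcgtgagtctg
Sc5d: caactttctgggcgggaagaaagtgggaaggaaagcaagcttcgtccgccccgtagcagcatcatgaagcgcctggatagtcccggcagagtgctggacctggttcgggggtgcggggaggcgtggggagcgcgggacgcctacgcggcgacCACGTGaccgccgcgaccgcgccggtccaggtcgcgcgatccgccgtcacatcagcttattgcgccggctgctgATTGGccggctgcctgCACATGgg
Hmgcs1: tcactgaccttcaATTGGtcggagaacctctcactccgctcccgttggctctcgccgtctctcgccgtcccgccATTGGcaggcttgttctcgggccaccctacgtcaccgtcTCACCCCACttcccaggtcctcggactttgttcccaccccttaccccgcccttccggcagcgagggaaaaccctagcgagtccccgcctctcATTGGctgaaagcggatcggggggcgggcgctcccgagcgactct
In Mvd the CCAAT match nearest the start, 27 to 23 bases before it, is followed directly by the E-box match CATATG. The E-box matches of Sc5d are CACGTG and CACATG, and its CCAAT match lies 24 to 20 bases before the start. The first CCAAT match of Hmgcs1 overlaps an E-box match, CAATTG, that is not in capitals.

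The unnumbered pair gave a second look at the same genes in separate libraries, in FPKM (fragments per kilobase of transcript, scaled to depth) from another pipeline. Each condition has 1 library here, so the authors' deposited test of this pair rests on no replicates and was not used. Id2 had 9.69 FPKM in the library labelled dKO and 18.6 in the library labelled control, while Id3 had 221 in the library labelled dKO and 160 in that labelled control. Of the 30 lipid genes, 24 reached 5 FPKM in at least 1 library. Their median log2 ratio of FPKM + 1 was -0.07, with 10 above and 14 below 0. The median of all 8681 genes at that level was 0.01, with 50.9% above 0. Only Scd2 differed by 1.5-fold or more, with 79.3 FPKM in the library labelled dKO and 47.6 in the library labelled control (log2 ratio 0.72), beside 17.4% of all genes past that fold, 8.05% higher and 9.35% lower. Of the 5 mevalonate and isoprenoid genes at that level, Mvd was above 0 and the other 4 below. The 10 genes from squalene to cholesterol at that level had a median of -0.25 with 3 above 0, while all 11 had a median of 0.04 in the numbered libraries. Mvd had 36.4 FPKM in the library labelled dKO and 25.2 in the library labelled control (log2 ratio 0.51). Sc5d had 17.9 FPKM in the library labelled dKO and 23.9 in the library labelled control (log2 ratio -0.40). The lowest ratio was that of Srebf2, with 53.6 FPKM in the library labelled dKO and 79.9 in the library labelled control (log2 ratio -0.57). Tm7sf2 had 10.3 FPKM in the library labelled dKO and 9.86 in the library labelled control.

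With the pair read by its titles, Mvd, Scd2, Sc5d and Srebf2 had the same direction as in the numbered libraries, and read by its genotype tags they had the opposite one. Over the 24 genes, 18 had the same sign by the titles and 6 by the tags. Log2 fold changes near 0 count here too, among same-sign genes by the titles (Sqle -0.0001, Dhcr7 -0.0063, Srebf1 0.0131) and others (Msmo1 0.0224, Fdft1 0.0387). The log2 values had a Pearson correlation of 0.79 by the titles and -0.79 by the tags. Their Spearman correlation was 0.75 by the titles and -0.75 by the tags. These describe genes and not replicates, and the values by the tags follow from those by the titles with the pair turned. Neither the share of same signs nor the correlations were computed over all genes. They are thus not shown to be particular to the lipid genes. Id2 was lower and Id3 higher in the library labelled dKO, and the orientation of the pair was not settled. Hmgcs1 is listed at 0 in both libraries of the pair although it was well expressed in the numbered ones; its accession stands at 2 places in that table. Idi1 was likewise low there, at 0.345 FPKM in the library labelled dKO and 0.386 in the library labelled control. The other 4 genes under 5 FPKM were Hsd17b7 (3.35 in that labelled dKO, 1.95 in that labelled control), Elovl6 (2.27 in that labelled dKO, 3.14 in that labelled control), Acaca (1.58 in that labelled dKO, 1.25 in that labelled control) and Scd1 (0.314 in that labelled dKO, 0.137 in that labelled control).

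The remaining genes of the pair differed by less than 1.5-fold. Among the mevalonate and isoprenoid genes, the library labelled dKO had 10.6 FPKM of Mvk, 21.7 of Pmvk, 10.2 of Fdps and 7.20 of Acat2, and the library labelled control had 11.9 of Mvk, 22.0 of Pmvk, 10.6 of Fdps and 10.01 of Acat2. From squalene on, the library labelled dKO had 7.68 FPKM of Fdft1, 7.71 of Sqle, 3.65 of Lss, 8.99 of Cyp51, 14.0 of Msmo1 and 20.7 of Dhcr7, and the library labelled control had 9.05 of Fdft1, 9.70 of Sqle, 5.10 of Lss, 10.1 of Cyp51, 18.1 of Msmo1 and 26.8 of Dhcr7. These 10 genes were all lower in the library labelled dKO. Both X-linked genes were slightly higher there, Ebp at 52.3 FPKM in the library labelled dKO and 50.3 in that labelled control, and Nsdhl at 15.4 in the library labelled dKO and 14.7 in that labelled control. Of the regulators, the library labelled dKO had 57.0 FPKM of Srebf1, 35.4 of Scap, 12.3 of Insig1, 12.5 of Insig2 and 13.9 of Stard4, and the library labelled control had 52.6 of Srebf1, 37.7 of Scap, 10.9 of Insig1, 14.1 of Insig2 and 11.8 of Stard4. Srebf1 was thus slightly above Srebf2 (53.6) in the library labelled dKO and below it (79.9) in the library labelled control. Fasn and Acly were near equal, with 29.5 FPKM of Fasn and 72.0 of Acly in the library labelled dKO, and 27.7 of Fasn and 69.3 of Acly in the library labelled control.

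**Figure D4:**
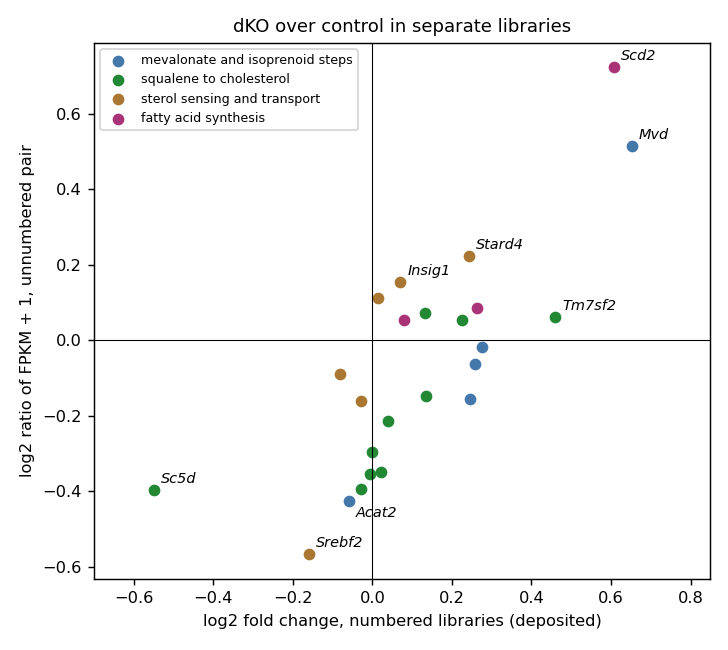
Log2 ratio in the unnumbered pair (FPKM + 1, library labelled dKO over library labelled control) against the deposited log2 fold change in the numbered libraries, for the 24 genes with 5 FPKM or more. Scd2 and Mvd lie at the upper right and Sc5d at the lower left. By the titles of the pair 18 of 24 genes have the same sign (6 by its genotype tags), and the share over all genes was not computed.

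Genes around the synthesis routes showed a few larger changes. Of 20 other genes of the sterol and isoprenoid branches, the authors' deposited table has 2 that rose, 0 that fell and 18 that missed the threshold, with a median log2 fold change of -0.015 over the 19 with a mean of 10 or more. All 15446 genes with such a mean had a median of -0.01, and 13.3% of them were called, 6.8% higher and 6.48% lower in dKO, with 49.0% above 0. Lbr, a nuclear membrane protein with the same sterol reductase activity as Tm7sf2, rose to 13421 scaled counts in dKO, against 8542 in control (log2 0.65, adjusted p 0.0003 in the authors' deposited table). Pdss1, which builds the side chain of ubiquinone, rose to 374 scaled counts in dKO, against 258 in control (log2 0.53, adjusted p 0.0374, the authors' deposited table).

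Of 13 genes that act on SREBP processing and sterol sensing, 3 rose, 1 fell and 9 did not pass, with a median log2 fold change of -0.12. Tmem97, a sterol-regulated membrane protein, had 1061 scaled counts in dKO and 673 in control (log2 0.66, adjusted p 0.0003 in the authors' deposited table). The related phosphatidate phosphatase genes Lpin1 and Lpin2 went in opposite directions. Lpin1, whose product restrains SREBP in the mouse nucleus, had 564 scaled counts in dKO and 999 in control (log2 -0.82). Lpin2 had 2649 in dKO and 1654 in control (log2 0.68), and both passed in the authors' deposited table.

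Among 23 genes of cholesterol uptake, transport, storage and efflux, 2 rose, 2 fell and 19 did not pass, with a median of 0.06 over the 20 with a mean of 10 or more. Abca1, which exports cholesterol from cells, fell to 157 scaled counts in dKO, against 470 in control (log2 -1.58, adjusted p 6.17e-13 in the authors' deposited table). In the pair Abca1 was near 1 FPKM in both libraries, at 1.07 in that labelled dKO and 0.983 in that labelled control. Lipa, the lysosomal lipase that frees cholesterol from its esters, rose to 6266 scaled counts in dKO, against 3251 in control (log2 0.95, adjusted p 3.64e-06 in the authors' deposited table). The lipoprotein receptor gene Lrp8 rose to 662 scaled counts in dKO, against 429 in control (log2 0.63, the authors' deposited table). Gramd1c, which encodes a sterol transfer protein, fell to 58.7 in dKO, against 120 in control (log2 -1.03, the authors' deposited table). In the pair Gramd1c was under 1 FPKM in both libraries, at 0.997 in that labelled dKO and 0.696 in that labelled control. Lipa had 67.5 FPKM in the library labelled dKO and 38.5 in that labelled control. Lrp8 had 3.37 FPKM in the library labelled dKO and 2.05 in that labelled control.

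Of 28 other genes of fatty acid supply, elongation, desaturation and activation, 0 rose, 1 fell and 27 did not pass, with a median of 0.01 over the 23 with a mean of 10 or more. The gene that fell was Acss2, which makes acetyl-CoA from acetate, with 802 scaled counts in dKO and 1491 in control (log2 -0.90, adjusted p 3.59e-08 in the authors' deposited table). Among 18 fatty acid oxidation genes, 1 rose (Acadl, log2 0.58), 1 fell (Acadm, log2 -0.56) and 16 did not pass there, with a median of -0.07 over the 17 with a mean of 10 or more. These enzymes act on long and medium chains. Of the genes named from these lists, Lbr, Pdss1, Lpin2, Lrp8, Gramd1c, Acss2 and Acadl overlap another annotated gene, so the counting may have split or shared their reads.

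The cell division list moved far more than the lipid genes. Of its 20 genes, the authors' deposited table has 17 that rose, 0 that fell and 3 that missed the threshold, with a median log2 fold change of 0.98. Those 3 were the replication genes Mcm2 (log2 0.43), Mcm6 (log2 0.28) and Pcna (log2 0.74). The 4 genes of the list with the smallest adjusted p were Plk1, a mitotic kinase gene, Birc5, Ccnb2, a mitotic cyclin gene, and Nusap1. Plk1 had 4006 scaled counts in dKO and 1911 in control, and Ccnb2 had 5668 in dKO and 2893 in control, by the authors' deposited table. Its part in the values of Mvd, Sc5d and the other genes named above was not tested.

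**Figure D5:**
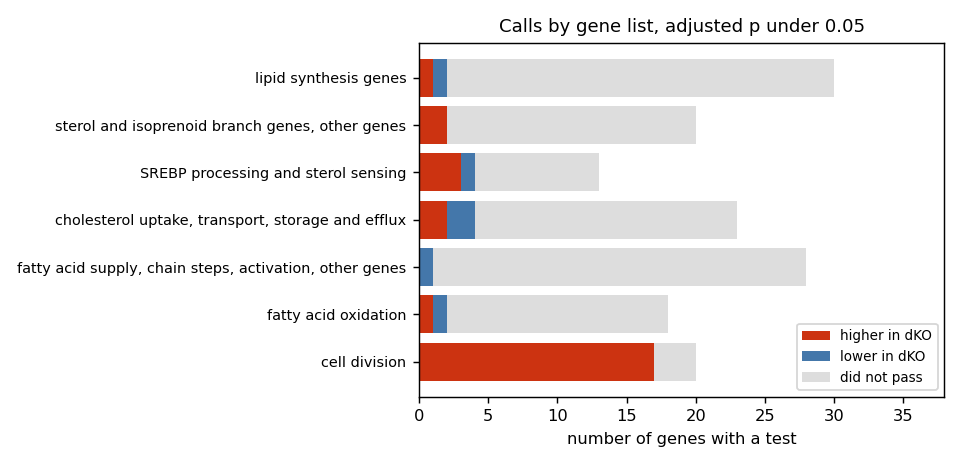
Number of genes with a test that were higher in dKO, lower in dKO or did not pass, for the lipid synthesis genes and the 6 other lists. The lipid synthesis genes have 1 higher and 1 lower of 30, and the cell division list has 17 higher of 20.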

How the data were processed

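Messenger RNA of sorted regulatory T cells was sequenced after strand marking with dUTP, per the labels' protocols. For the numbered libraries the authors deposited a mean signal per group (3 dKO, 2 control), which the file headers call raw counts although the values are fractional, with log2 fold changes and raw and adjusted p-values of their own test. Per the submitters' processing notes, RSEM and DESeq were used on mm10 (GRCm38). For the pair, the authors deposited FPKM, p-values and q-values and a test score per RefSeq transcript (TopHat 1.4.0 and Cuffdiff, version given as 0.0.6, on mm9, per the same notes). Of the 27901 entries, 27200 matched a gene.

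The planned test was the authors' deposited test, taken at an adjusted p of 0.05, since no library columns are given for a new fit. The genes, lists and roles were chosen with earlier results of these data known. The rule for names took all 30 genes, Id2 and Id3, and up to 4 called genes of each other list. A called gene of the SREBP processing list is counted but not reported here. The marker and Y-linked genes named are outside that rule and were picked with their values in view. The tables were not pooled.

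Control reads were solved as whole numbers that, divided by the size factors and averaged, give the mean printed to 4 decimals. Each library had to give 35 to 65% of it, except for Scd1, Kdm5d and Uty, where a wider range was allowed. At control means of 400 to 1000, 2025 of 2234 genes had 1 solution when each library could give 10 to 90%, and 98.7% of those 2025 lay within 35 to 65%. In simulated control means, 100% of single solutions were right at 400 to 1000 and 95.9% at 1000 to 2000. FPKM was summed over transcripts, with a pseudocount of 1, which understates changes of low genes. Copies were sought with BLAST 2.17.0 in GENCODE transcripts (95% identity over 300 bases or more). Python 3.11.15 was used.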

Additional observations from a re-analysis of the deposited data

How the results depend on the processing

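The count of 2 lipid genes called was 2 or 3 at an adjusted p of 0.1 or 0.01 and with the adjustment redone over all genes with a p, over genes with a mean of 10 or more, or (chosen after seeing the data) of 300 or more, where the added gene was Tm7sf2 (adjusted p 0.0271 at 300). Leaving out the 10 genes that overlap another gene removed Mvd and left 1, Sc5d. The median log2 fold change of 0.11 was between 0.10 and 0.12 against each control library alone, over the 22 genes read, and 0.0692 with scaling to the sum. In the pair the median of -0.07 was -0.0625 with a pseudocount of 5 FPKM, -0.0305 over all 30 genes and -0.10 with the highest transcript. Turned to its genotype tags (chosen after seeing the data), it was 0.0747. Leaving out a dKO library was not run, because 3 libraries cannot be separated in the printed mean at these levels. No paired analysis was possible because the columns are group means and carry no replicate numbers. Intervals for single genes could not be formed, so small differences that did not pass are not shown to be absent.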
